A study of Mus musculus with 6 samples.

Results

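The 10 genes described here carry out heme breakdown (Hmox1, Blvra, Blvrb), iron storage in ferritin (Ftl1, Fth1), iron uptake (Tfrc, Slc11a2, Steap3), iron export (Slc40a1) and iron sensing (Ireb2). They were taken by name from the 23284 gene symbols counted in every library, and all 10 were among the 10512 genes with enough reads to be tested. Polyadenylated RNA was sequenced from erythroblasts, the nucleated precursors of red cells, of C57BL/6 embryos at stage E10.5, sorted as live cells positive for Ter119 and CD71. Control replicates 1 and 3 had the genotype Setd8 +/+ EpoRCre, control replicate 2 was Setd8 fl/fl EpoR WT and so had floxed alleles and no Cre, and the 3 null libraries were SETD8fl/fl EpoR Cre, in which a Cre expressed from the erythropoietin receptor locus recombines floxed Setd8 in erythroid cells. The series title names the effect of losing Setd8, a histone H4 methyltransferase, in maturing erythroblasts as the question. The labels name fetal liver as the source and the series' design text names fetal blood, and nothing in them says whether a library held 1 embryo or a pool, and each p-value therefore refers to the variation among these 6 libraries, part of which may be technical.

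Erythroid precursors take up more iron than other cells because they build heme for hemoglobin. Iron bound to transferrin enters through the transferrin receptor (Tfrc, also the sort marker CD71), is reduced in the endosome by Steap3 and leaves the endosome through Slc11a2. Iron that is not used is held in ferritin, a shell of heavy (Fth1) and light (Ftl1) chains, or leaves the cell through ferroportin (Slc40a1). Heme oxygenase (Hmox1) opens the heme ring to biliverdin and releases its iron. The biliverdin reductases Blvra and Blvrb reduce different forms of biliverdin, and that of Blvrb is not the form heme oxygenase makes. When iron is scarce, the iron regulatory protein encoded by Ireb2 binds a short RNA hairpin, the iron-responsive element, which stops translation when it lies in a 5′ UTR and stabilises the message when it lies in a 3′ UTR. Read counts measure the message and not its translation.

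Of the 10 genes, 4 had this hairpin in a UTR of the GENCODE M21 transcripts, searched as an unpaired C, 5 base pairs with G-T allowed, the loop CAGTGN and the other strand of the stem. The same pattern was in a UTR of 155 of 21877 protein-coding genes (0.709%). The 7 sites are shown because they divide the genes by the end of the message at which the hairpin lies; capitals mark the loop, and the RNA is written as DNA.
Ftl1 5′ UTR: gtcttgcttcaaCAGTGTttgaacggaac
Fth1 5′ UTR: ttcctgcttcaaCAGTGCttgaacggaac
Slc40a1 5′ UTR: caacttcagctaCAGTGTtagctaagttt
Tfrc 3′ UTR, site 1: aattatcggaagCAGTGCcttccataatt
Tfrc 3′ UTR, site 2: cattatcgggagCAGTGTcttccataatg
Tfrc 3′ UTR, site 3: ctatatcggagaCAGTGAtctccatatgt
Tfrc 3′ UTR, site 4: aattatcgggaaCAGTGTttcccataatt
In the GRCm38 build the Ftl1 site is chr7:45459779-45459807 on the minus strand, the Fth1 site chr19:9982732-9982760 on the plus strand and the Slc40a1 site chr1:45925465-45925493 on the minus strand. The 4 Tfrc sites lie on the plus strand at chr16:32631219-32631247, chr16:32631598-32631626, chr16:32631663-32631691 and chr16:32631710-32631738. Slc11a2, known for a variant of the hairpin in a 3′ UTR, had no match to this exact pattern.

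The libraries held 7756940 to 21434719 assigned counts, and 3 counts equal 0.445 CPM in control 1 and 0.14 to 0.175 CPM in the others (counts-per-million, scaled by TMM factors). They fell into 2 sets by their titles, an unlettered set (controls 1 and 2 and null 1) and a set with a trailing letter (control 3 and nulls 2 and 3), and some levels, such as that of Fth1 below, differed several-fold between the sets. The main test, edgeR's quasi-likelihood test with Benjamini-Hochberg adjustment over all tested genes, therefore had the title set as a term, and adjusted p-values below come from it unless the fit with group alone is named. Setd8 was at 73.9, 74.8 and 203 CPM in controls 1, 2 and 3 and at 48.9, 100 and 96.3 CPM in nulls 1, 2 and 3. The groups overlapped across sets, and within them the null libraries were lower (log2 ratio -0.83, SE 0.17, adjusted p = 0.00911, and adjusted p = 0.702 with group alone); the counts do not separate the floxed exons from the rest of the gene. Of 11 tested erythroid markers, 3 were lower in null libraries (Epor, Hba-x and Spna1), beside 4.16% of all tested genes called lower. The Cre lies in the Epor locus, and Epor was at 52.3, 118 and 158 CPM in controls 1, 2 and 3, of which control 2 has no Cre. A part of the Cre allele in the Epor difference was not tested. Globin genes took 37.1% to 45.2% of control counts and 26.5% to 39.9% of null counts. Fewer cells of a type and less RNA per cell cannot be told apart in such bulk samples.

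Of the 10 genes, 4 rose in null libraries (Hmox1, Ftl1, Fth1 and Blvrb), 1 fell (Tfrc) and 5 did not pass (Slc11a2, Steap3, Blvra, Slc40a1 and Ireb2). The median log2 ratio of the 10 genes was 0.16, beside 0.044 for all tested genes. Over all tested genes the same test called 12.8%, of which 8.65% of genes tested were higher and 4.16% lower. With group alone it called 1 of the 10 (Hmox1), beside 1.15% of all genes, 1.14% higher and 0.00951% lower. Values of the groups did not overlap for 4 of the 10 genes, with every null library above every control for Hmox1 and Ftl1 and below for Tfrc and Slc11a2, against 24.1% of all tested genes, 14.9% above and 9.16% below. The direction was the same in both title sets for 8 of the 10, beside 68.6% of all genes, the exceptions being Slc40a1 and Ireb2.

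**Figure D1:**
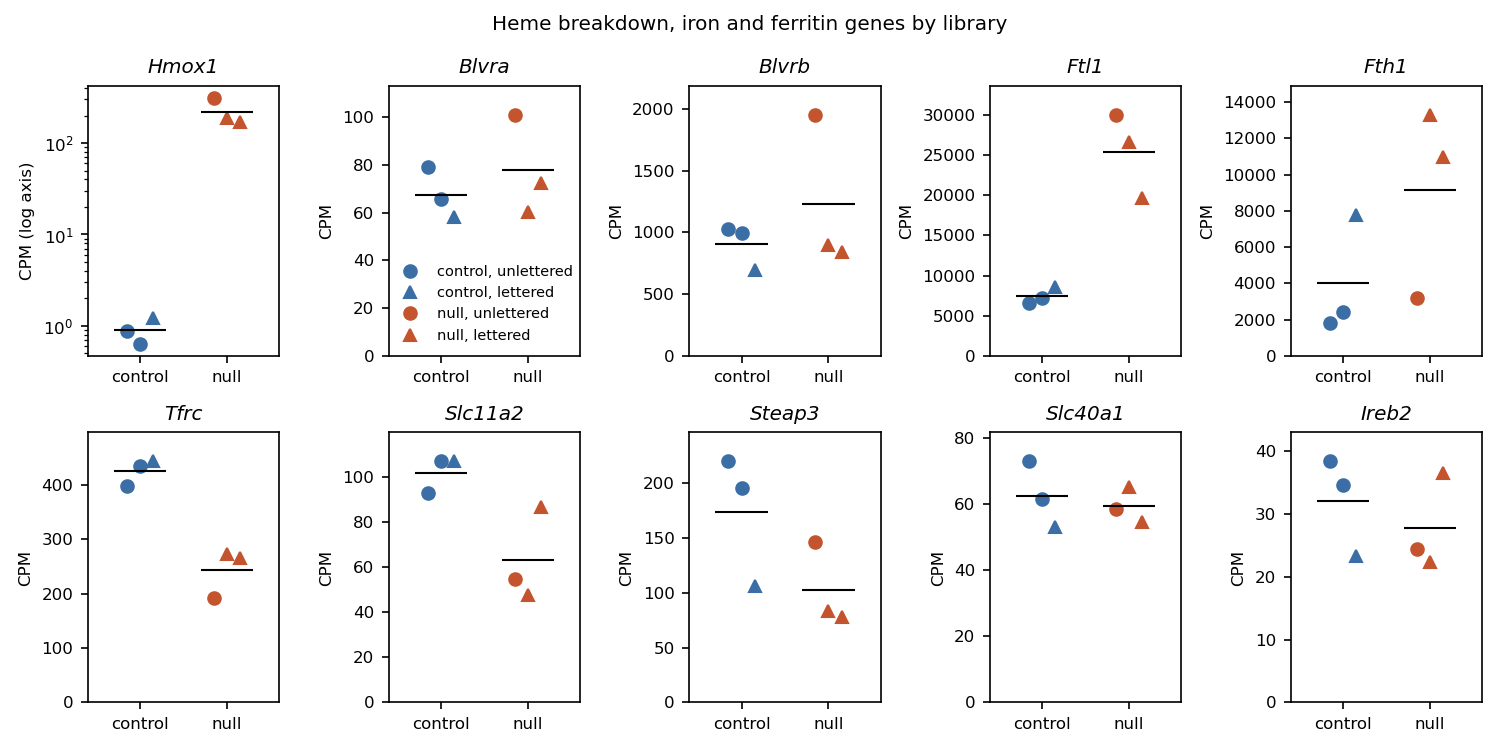
Scaled CPM of the 10 genes in each library, with controls on the left and null libraries on the right of each panel, circles for the unlettered and triangles for the lettered title set, and a line at each group's mean; the Hmox1 axis is logarithmic and the others start at 0. Hmox1 and Ftl1 lie above every control in all 3 null libraries, Tfrc and Slc11a2 below.

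Hmox1, the inducible heme oxygenase, went from near silence to a strongly counted gene. It had 6, 12 and 26 reads in controls 1, 2 and 3, which is 0.889, 0.639 and 1.21 CPM. In nulls 1, 2 and 3 it had 5290, 3627 and 3270 reads, or 309, 186 and 169 CPM. The lowest null library was thus far above the highest control, and the spread within each group was small beside the gap between them. The group means were 0.912 ± 0.286 and 221 ± 76.4 CPM (SD, n = 3 each), a 244-fold difference (log2 ratio 7.93, SE 0.33, 95% interval 7.22 to 8.64, adjusted p = 1.05e-07). With group alone the log2 ratio was 7.90 (SE 0.46, adjusted p = 0.00145). By the size of its log2 ratio Hmox1 ranked 57 and by its p-value 3 of the 10512 tested genes, and by mean level it moved from rank 9411 in controls to rank 463 in null libraries.

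The difference in Hmox1 was 355-fold among unlettered and 134-fold among lettered libraries. A test of that difference between the sets gave a log2 value of -1.55 with an unadjusted p of 0.0049 and an adjusted p of 0.568 in edgeR's quasi-likelihood test, so it did not pass. Hmox2, the constitutive heme oxygenase, named for comparison, was at 64.2, 45.2 and 20.4 CPM in controls and 37.0, 18.6 and 22.8 CPM in null libraries and did not pass (log2 ratio -0.27, adjusted p = 0.573). Per read of Hmox2 there were 0.0139, 0.0142 and 0.0592 reads of Hmox1 in the controls. In the null libraries there were 8.36, 9.99 and 7.4, so that the more counted of the pair changed from Hmox2 to Hmox1 in all 3.

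Macrophages are a cell type known for high heme oxygenase, and the sum of their markers was also higher in null libraries. The summed level of 20 macrophage markers was 2.96, 2.02 and 13.1 CPM in controls 1, 2 and 3 and 65.6, 79.3 and 140 CPM in nulls 1, 2 and 3. Of the sums in nulls 1, 2 and 3, Laptm5 gave 29.6, 22 and 25.5 CPM and Cd68 gave 10.2, 21.2 and 14.2 CPM. Of the 10 that were tested, 5 were higher in null libraries (Csf1r, Cd68, C1qb, Tyrobp and Laptm5) and none lower. Over all tested genes 8.65% were called higher. Csf1r, C1qb, Tyrobp and Laptm5 had no read in control 1 and entered the test through the null libraries, so they could hardly be called lower. Null 1 had the highest Hmox1 and the lowest marker sum of the 3 null libraries, and null 3 the reverse. Emr1, the gene of the macrophage antigen F4/80, was at 0 in all controls and in null 1 and at 0.359 and 2.58 CPM in nulls 2 and 3. Sfpi1, which encodes the transcription factor PU.1, was at 0 in null 1 and at 11.7 and 12.9 CPM in nulls 2 and 3, Marco was at 0 in every library, and Vcam1 and Spic were at 0 in all null libraries. The part of these cells' RNA in the Hmox1 difference was not tested.

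**Figure D2:**
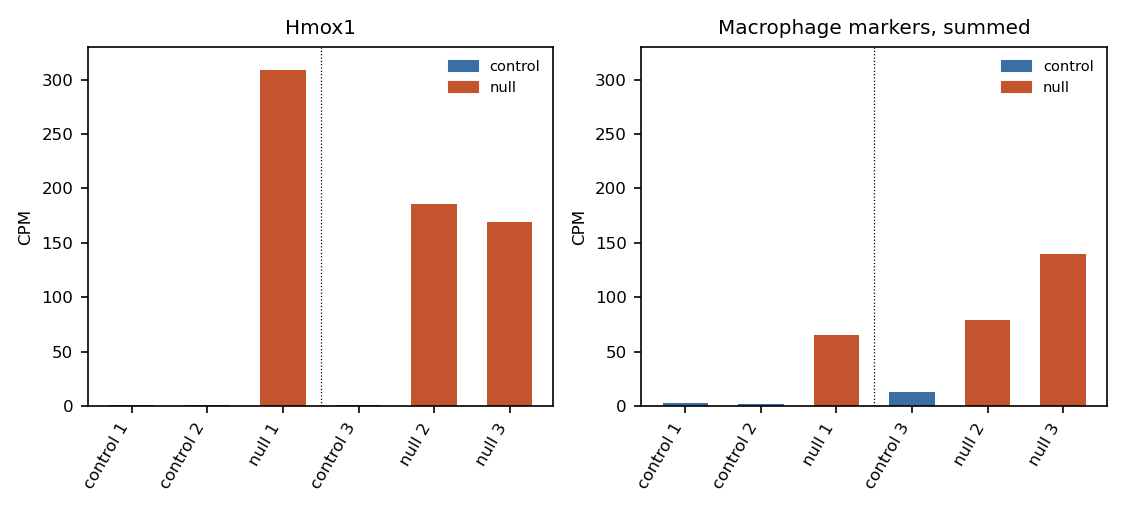
Hmox1 (left) and the sum of 20 macrophage marker genes (right) in scaled CPM in each library, ordered by title set with a dotted line between the sets. Hmox1 is highest in null 1 at 309 and the marker sum is highest in null 3 at 140, while the controls are at most 1.21 and 13.1.

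Summed markers of 3 other cell types were also higher in null libraries, and a few genes carried the sums. Endothelial markers summed to 4.05 to 16.7 CPM in controls and 30.3 to 39.7 CPM in null libraries. Of 5 tested markers, 3 were higher (Pecam1, Tek and Eng), and Emcn was at 0 throughout. Egfl7 gave 6.66, 23.2 and 17.9 CPM of the sums in nulls 1, 2 and 3. Its groups overlapped and it did not pass (adjusted p = 0.116). Cdh5 was at 0.0517 CPM in null 3 and at 0 elsewhere. Tie1 was at 0.326 CPM in control 3 and at most 0.0517 CPM in null libraries. Megakaryocyte markers summed to 27.1 to 42.7 and 89.2 to 138 CPM, with 2 of 4 tested markers higher, Itga2b and Itgb3, which made up most of the sum, while Gp9 was lower than every control in all null libraries and Ppbp was at 0 in them. Granulocyte and mast cell markers summed to 0 to 2.88 and 73.2 to 118 CPM, with 1 of 2 tested markers higher. That marker, Ltf, gave 84.9, 72.2 and 51.7 CPM of the sums in nulls 1, 2 and 3, Mpo gave 61.3 CPM in null 3, and Elane, Cpa3, Cma1 and Mcpt4 were at 0 in every library. With group alone none of these markers passed, and of the macrophage markers 2 did (Cd68 and Laptm5). Pecam1, Tek, Eng and Ltf had few reads in controls and entered the test through the null libraries, so they could hardly be called lower. The main fit called 8.65% of all tested genes higher. Hepatocyte markers stayed low at 0.692 to 5.02 CPM in controls and 1.18 to 6.02 CPM in null libraries, with Alb and Fgb at 0 throughout. The part of these cells' RNA in the results below was likewise not tested.

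The biliverdin reductases changed far less than Hmox1. Blvrb, the form abundant in red cells, was at 1026, 997 and 692 CPM in controls 1, 2 and 3 and at 1951, 895 and 845 CPM in nulls 1, 2 and 3. Null 1 stood above all other libraries, and nulls 2 and 3 lay within the range of the controls. Compared within the title sets, Blvrb rose 1.56-fold (log2 ratio 0.64, SE 0.16, 95% interval 0.28 to 1.0, adjusted p = 0.0255), with log2 ratios of 0.95 among unlettered and 0.33 among lettered libraries. The call did not hold with group alone (log2 ratio 0.44, adjusted p = 0.707), and without null 1 the log2 ratio was 0.32 (adjusted p = 0.356). It was also lost without control 1 (adjusted p = 0.109), control 2 (adjusted p = 0.118) or null 2 (adjusted p = 0.115).

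Blvra, the main form in adult tissues, was at 79, 65.8 and 58.1 CPM in controls and 101, 60.4 and 72.3 CPM in null libraries. Its groups overlapped and it did not pass (log2 ratio 0.34, SE 0.19, 95% interval -0.074 to 0.75, adjusted p = 0.274). There were 13, 15.2 and 11.9 reads of Blvrb per read of Blvra in controls and 19.3, 14.8 and 11.7 in null libraries, so that null 1 stood above the other libraries.

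The light chain of ferritin, Ftl1, gained more CPM than any other tested gene. It was at 6635, 7257 and 8529 CPM in controls 1, 2 and 3 and at 30007, 26639 and 19681 CPM in nulls 1, 2 and 3. The controls lay close together, and the lowest null library was more than the highest control by a wide margin. The means were 7474 ± 965 and 25442 ± 5266 CPM (SD, n = 3 each), and Ftl1 rose 3.43-fold (log2 ratio 1.78, SE 0.19, 95% interval 1.35 to 2.20, adjusted p = 0.000212). With group alone the log2 ratio was 1.77 (SE 0.43) and the adjusted p was 0.109. The rise was 4.32-fold among unlettered and 2.68-fold among lettered libraries, a difference with an unadjusted p of 0.0479 and an adjusted p of 0.688.

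The gain in mean Ftl1 level was 17969 CPM, rank 1 of the tested genes. Ftl1 made up 0.577%, 0.636% and 0.926% of all assigned reads in controls 1, 2 and 3 and 2.4%, 3.14% and 2.5% in nulls 1, 2 and 3. With Fth1 added, ferritin took 0.736%, 0.847% and 1.77% of control reads and 2.66%, 4.7% and 3.9% of null reads. Every null library thus gave a larger share of its reads to ferritin than any control.

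Fth1, the heavy chain that oxidises iron as it enters the shell, differed more between the title sets than between the groups. It was at 1821 and 2413 CPM in controls 1 and 2 and at 3208 CPM in null 1. In the lettered set it was at 7752 CPM in control 3 and at 13292 and 10953 CPM in nulls 2 and 3. Control 3 was 3.66 times the mean of the other controls and above null 1, so the groups overlapped. Within the sets Fth1 rose 1.54-fold (log2 ratio 0.62, SE 0.17, 95% interval 0.25 to 0.99, adjusted p = 0.0338), by a log2 ratio of 0.61 in the unlettered libraries and 0.64 in the others. The call was lost with group alone (log2 ratio 1.20, SE 0.76, adjusted p = 0.525) and when any library other than null 3 was left out (adjusted p of 0.135 without control 1, 0.0567 without control 2, 0.121 without control 3, 0.187 without null 1 and 0.193 without null 2). Ferritin genes have near-identical copies in the mouse genome, and reads without a unique alignment were 22.5% to 32.4% of the unlettered tables, so both ferritin levels are uncertain to the extent that such reads were left out.

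The balance of the 2 ferritin chains followed both the set and the group. There were 3.64 and 3.01 reads of Ftl1 per read of Fth1 in controls 1 and 2 and 9.35 in null 1. In the lettered set there were 1.1 in control 3 and 2 and 1.8 in nulls 2 and 3. Null libraries were higher within each set, 2.83-fold in the unlettered and 1.72-fold in the lettered. Across the sets, which differ in this ratio, the log2 difference was 0.49. A 2-sided exact permutation test of it, which takes no account of the title set, gave p = 0.7 and could not have passed, since 20 splits allow no p below 0.1. Without null 1 that difference was -0.27 and without control 3 it was -0.036.

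**Figure D3:**
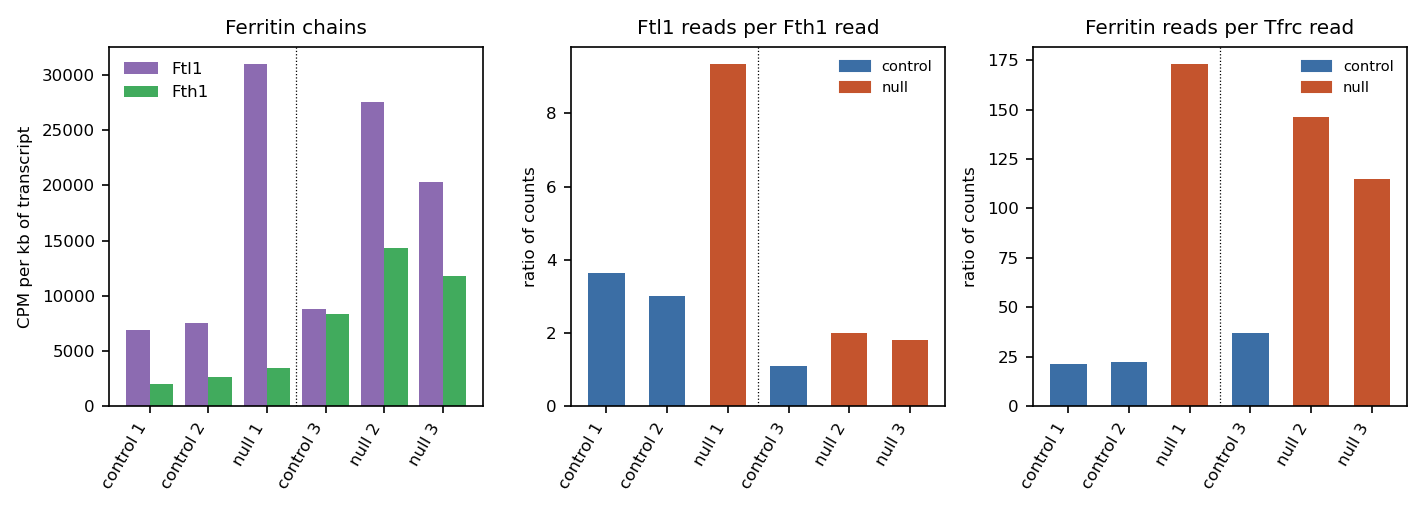
Ferritin light and heavy chain levels in scaled CPM per kilobase of transcript (left), reads of Ftl1 per read of Fth1 (middle) and reads of both ferritin chains per read of Tfrc (right), by library and title set, with a dotted line between the sets. Ferritin reads per Tfrc read are 21.2 to 36.7 in controls and 115 to 173 in null libraries.

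Tfrc, the transferrin receptor, moved opposite to ferritin. It was at 398, 435 and 443 CPM in controls 1, 2 and 3 and at 192, 273 and 266 CPM in nulls 1, 2 and 3. Every null library was below every control, and null 1 was the lowest. The means were 426 ± 24 and 244 ± 45 CPM (SD, n = 3 each), and Tfrc fell by 0.92 on the log2 scale (SE 0.16, 95% interval -1.27 to -0.57, adjusted p = 0.00363), so that controls held 1.89 times as much. Within the sets it was -1.12 (unlettered) and -0.72 (lettered). With group alone it was -0.81 (SE 0.25, adjusted p = 0.184), and without null 1 it was -0.73 (adjusted p = 0.0684), so the call was lost in both. Cells were gated on CD71, the protein of this gene, in both groups.

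Per read of Tfrc there were 21.2, 22.2 and 36.7 ferritin reads in controls 1, 2 and 3. In nulls 1, 2 and 3 there were 173, 146 and 115. The ratio was 7.98-fold higher in null libraries in the unlettered set and 3.54-fold in the lettered set. The genes on its upper side carry the hairpin in the 5′ UTR, and Tfrc carries it in the 3′ UTR. A part of the hairpin in this ratio was not tested.

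The genes that follow the receptor in the endosome had negative log2 ratios that missed the threshold. Slc11a2, the endosomal transporter of ferrous iron, was at 92.9, 107 and 107 CPM in controls and at 54.9, 47.8 and 86.6 CPM in nulls 1, 2 and 3. No null library reached the lowest control, and null 3 lay nearest to it. The log2 ratio was -0.76 (SE 0.23, 95% interval -1.28 to -0.25, adjusted p = 0.0543). It passed in 5 of the alternatives, among them DESeq2 (adjusted p = 0.0175) and the fit without null 3 (log2 ratio -1.07, adjusted p = 0.00559).

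Steap3, the reductase of the erythroid endosome, was at 220, 196 and 106 CPM in controls 1, 2 and 3 and at 146, 83.5 and 78.3 CPM in nulls 1, 2 and 3. The lettered control lay below null 1, so the groups overlapped, while each null library was below the controls of its own set. The log2 ratio was -0.45 (SE 0.16, 95% interval -0.79 to -0.11, adjusted p = 0.0837), and it passed in DESeq2 (log2 ratio -0.49, adjusted p = 0.0155).

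Export and sensing showed no change that passed. Slc40a1, the ferroportin gene, was at 72.8, 61.3 and 53 CPM in controls and 58.4, 65 and 54.5 CPM in null libraries (log2 ratio -0.011, SE 0.21, 95% interval -0.46 to 0.44, adjusted p = 0.98). An annotated Slc40a1 transcript shares the hairpin in the 5′ UTR with the ferritin genes. Counts per gene do not show whether the Slc40a1 messages in these cells carried it. The interval of Slc40a1 lies below that of Ftl1 (1.35 to 2.20) and overlaps that of Fth1 (0.25 to 0.99). Read counts do not measure translation, on which a hairpin in the 5′ UTR acts. Whether the hairpin had a part in these message levels was not tested. Ireb2 was at 38.4, 34.6 and 23.3 CPM in controls 1, 2 and 3 and at 24.5, 22.4 and 36.5 CPM in nulls 1, 2 and 3 (log2 ratio -0.12, SE 0.32, 95% interval -0.81 to 0.58, adjusted p = 0.854). Null 3 was the highest null library for Ireb2 and lay within the controls' range, and the ratio differed in sign between the sets (log2 -0.57 unlettered, 0.29 lettered).

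**Figure D4:**
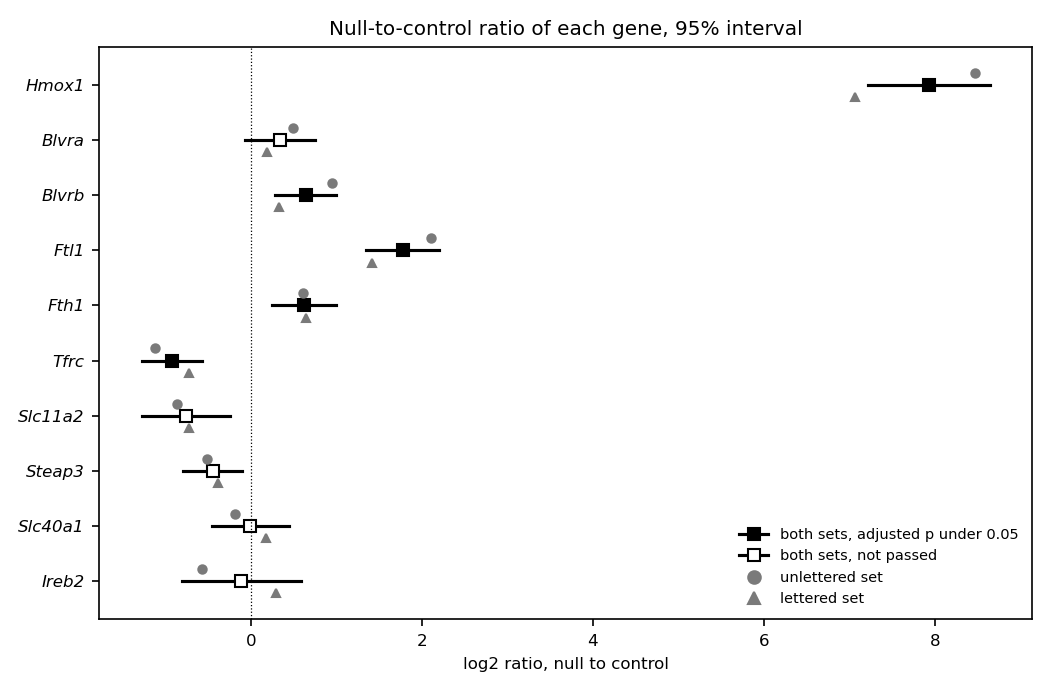
Log2 ratio of null to control for the 10 genes with 95% intervals from the fit with title set as a term (squares, filled where the adjusted p is under 0.05), and the ratio within the unlettered (circles) and lettered (triangles) title sets. The ratios run from 7.93 for Hmox1 to -0.92 for Tfrc, and the sets differ in sign for Slc40a1 and Ireb2.

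A test of whether the null-to-control ratio differed between the title sets called 0 of the 10 genes in edgeR's quasi-likelihood test, with adjusted p-values from 0.568 to 0.995. At an unadjusted p under 0.05 there were 3, Hmox1, Blvrb and Ftl1, and each had the larger ratio in the unlettered set. This fit had 2 residual degrees of freedom and called 1 of all tested genes.

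Levels of different genes were compared per kilobase of their transcript. In controls the order of mean level was Ftl1 at 7721 ± 997, Fth1 at 4301 ± 3517, Blvrb at 880 ± 180, Tfrc at 87.1 ± 4.9 and Steap3 at 59.4 ± 20.6 CPM per kilobase. Blvra at 58.3 ± 9.11, Slc11a2 at 33.7 ± 2.62, Slc40a1 at 18.5 ± 2.94, Ireb2 at 5.56 ± 1.36 and Hmox1 at 0.582 ± 0.182 followed (SD, n = 3 each). Neighbours whose ranges overlapped were Ftl1 with Fth1 and Steap3 with Blvra. In null libraries ferritin still led, with Ftl1 at 26283 ± 5440 and Fth1 at 9850 ± 5681, and Blvrb followed at 1197 ± 607. Hmox1, last in the controls, came next at 141 ± 48.7 CPM per kilobase, with no overlap with its neighbours. Below it Blvra, Tfrc, Steap3 and Slc11a2 each overlapped the next in the order, which ran from Blvra at 67.2 ± 18.1 to Slc40a1 at 17.6 ± 1.58. Ireb2 was last at 4.82 ± 1.32 and overlapped with none.

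Of 66 other genes of heme and iron handling in 4 lists, 44 had enough reads to be tested, 3 rose and 1 fell, with a median log2 ratio of 0.17. The 4 called genes were 9.09% of those tested, near the 12.8% called over all tested genes. Of 16 heme handling genes, 11 were tested and 2 rose. The heme exporter gene Mfsd7b, also named Flvcr1, was at 26.4, 28.9 and 45.2 CPM in controls and 60.2, 82.6 and 108 CPM in null libraries (log2 ratio 1.10, SE 0.20, adjusted p = 0.00476, and 0.121 with group alone). Slc48a1, which moves heme out of lysosomes, was at 30.5, 33.5 and 57.8 CPM in controls and 63.9, 108 and 117 CPM in null libraries (log2 ratio 0.98, SE 0.18, adjusted p = 0.00521, and 0.164 with group alone). All null libraries were above all controls for both. Abcg2, a transporter that exports heme and porphyrins, was the most abundant that did not pass, at 544 ± 68.9 and 650 ± 12.2 CPM (SD, n = 3 each, adjusted p = 0.217).

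Of 18 other iron uptake genes, 11 were tested, 1 rose and 1 fell, with a median log2 ratio of -0.21. Picalm, which shapes the coated pits that take in the transferrin receptor, was at 115, 104 and 66 CPM in controls and 154, 138 and 123 CPM in null libraries (log2 ratio 0.74, SE 0.18, adjusted p = 0.0211, and 0.411 with group alone). Slc39a8, a transporter of zinc, manganese and iron, was at 207, 185 and 1102 CPM in controls 1, 2 and 3 and 142, 688 and 769 CPM in nulls 1, 2 and 3 (log2 ratio -0.53, SE 0.15, adjusted p = 0.0353, and 0.977 with group alone). Its level, like that of Fth1, differed more between the sets than between the groups. Vps35, a part of the complex that recycles receptors, was the most abundant that did not pass (205 ± 14.0 and 169 ± 21.4 CPM, SD, n = 3 each, adjusted p = 0.17).

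Of 12 other genes of iron storage, chaperoning and export, 6 were tested and none passed in either direction, with a median log2 ratio of -0.07. Ncoa4, the receptor that carries ferritin to lysosomes, was the most abundant at 780 ± 96.6 and 919 ± 267 CPM (SD, n = 3 each, adjusted p = 0.949). Of 20 other iron regulation genes, 16 were tested and none passed, with a median of 0.17. Skp1a, part of the ubiquitin ligase that removes the iron regulatory protein, was the most abundant at 301 ± 36.3 and 348 ± 8.54 CPM (adjusted p = 0.498). Nfe2l2 and Bach1, the activator and the repressor best known at the Hmox1 gene, had log2 ratios of -0.20 (adjusted p = 0.479) and 1.10 (adjusted p = 0.27). The log2 ratio of Bach1 was 0.14 among unlettered and 2.06 among lettered libraries, where control 3 was at 1.63 CPM (35 reads). With group alone the Bach1 ratio was 0.052 (adjusted p = 0.986). Nfe2l2 and Bach1 were named after their values were seen.

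The antioxidant genes listed include many known targets of the factor encoded by Nfe2l2. Of 22, all were tested, 12 rose and none fell, with a median log2 ratio of 0.92, beside 8.65% of all tested genes called higher. The list overlaps with genes whose rise was known when it was drawn up and is no independent evidence of a direction. With group alone 1 passed, Nqo1 (adjusted p = 0.0464). Osgin1 had no read in any control and 12.3, 8.16 and 1.6 CPM in nulls 1, 2 and 3, at least 112-fold higher against 3 counts over the control group (adjusted p = 0.00249). At that bound Osgin1 still had the largest log2 ratio of the list, so the median of 0.92 could not change.

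Gsta4, a glutathione transferase, was at 2.96, 2.66 and 1.91 CPM in controls and 29.2, 5.9 and 9.25 CPM in null libraries (log2 ratio 2.69, SE 0.49, adjusted p = 0.0047). Srxn1, sulfiredoxin, was at 12.7, 7.93 and 36.6 CPM in controls and 92.6, 176 and 120 CPM in null libraries (log2 ratio 2.58, SE 0.30, adjusted p = 0.000345). For Osgin1, Gsta4 and Srxn1 every null library was above every control. Sqstm1, an autophagy receptor, was at 23, 15.5 and 98.4 CPM in controls and 96.2, 318 and 263 CPM in null libraries and overlapped by the lettered control (log2 ratio 1.94, SE 0.22, adjusted p = 0.000253). With group alone the adjusted p was 0.0713 for Osgin1, 0.14 for Gsta4, 0.0902 for Srxn1 and 0.224 for Sqstm1. The metallothionein Mt2 was the most abundant that did not pass (adjusted p = 0.149).

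**Figure D5:**
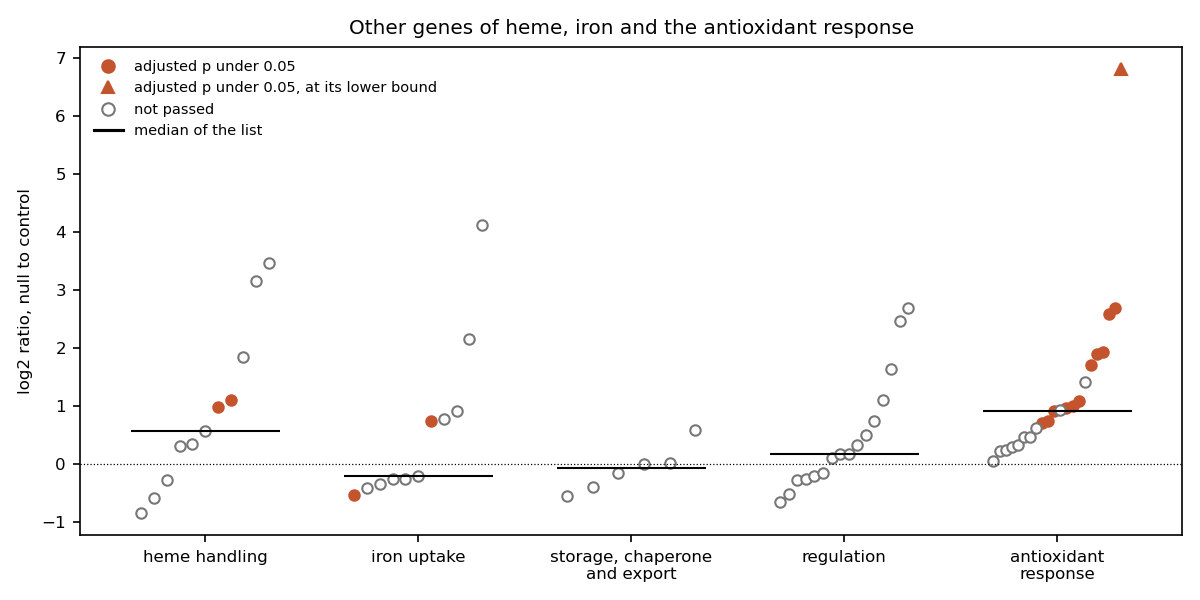
Log2 ratio of null to control for the tested genes of 5 lists of other heme, iron and antioxidant genes, each gene a point ordered by its ratio within its list, filled where the adjusted p is under 0.05, with a line at the list's median; the triangle is Osgin1 at its lower bound. The medians are 0.57, -0.21, -0.07, 0.17 and 0.92 from left to right.

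The other genes that carry the hairpin, and the promoters of the 10 genes, were searched as well. Of 151 other genes with the pattern in a UTR, 13 had no matching symbol in the count tables and 89 were tested. Of these 6 were higher and 3 lower (10.1%, near the 12.8% of all tested genes), with a median log2 ratio of 0.09. The 250 bases before and 50 after the start of each gene in RefSeq's GRCm38 promoter table were searched on both strands for TGACNNNGC, the core of the antioxidant response element. The table held 13 windows of 7 of the 10 genes, and 1 of them, of Blvra, had the motif, beside 4071 of all 32851 windows (12.4%). Hmox1, Slc11a2 and Slc40a1 had no entry in that table. Sites farther from the start were not searched, so a window without the motif cannot show that a gene lacks it.

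The genes most like 3 of the 10 were taken by Pearson's r of log2 CPM over the 6 libraries, among 6433 tested genes with a mean of at least 10 CPM, as a description of libraries that share title sets and groups. For Hmox1 they were Alox5 (r = 0.9975), Ak1 (r = 0.9963) and Plin2 (r = 0.9948). Plin2, which coats lipid droplets, was at 597, 574 and 579 CPM in controls and 1225, 1173 and 1057 CPM in null libraries. For Ftl1 they were Pla2g16 (r = 0.9978), Lage3 (r = 0.9959) and Anxa8 (r = 0.9944), and Lage3 was at 22.8, 22.3 and 25.4 CPM in controls and 65.8, 66.8 and 48.8 CPM in null libraries. For Tfrc they were Wdr75 (r = 0.9992), Hspa12b (r = 0.9946) and Ythdf2 (r = 0.9914). Wdr75, a factor of ribosome production, was at 102, 109 and 110 CPM in controls and 51, 70.4 and 67.7 CPM in null libraries, with null 1 lowest as for Tfrc.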

How the data were processed

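RNA was extracted with a small-input kit, per the labels' protocols. The authors deposited 1 table of raw gene counts per library. The submitters' processing notes name FastQC, Trimmomatic 0.32, TopHat2 2.1.0, HTSeq 0.6.1, edgeR and the genome build mm9, with no order or strand setting, so reads of a gene and of an overlapping antisense gene may be mixed. The tables of the unlettered set also held the counter's summary lines, which were left out of library sizes, and 25 symbols turned into dates, which were restored. Reads assigned to no feature were 42.9% of the table of control 1 and 7.72% and 6.07% of those of control 2 and null 1. Counts of same-group libraries differed beyond sampling noise, so none was a duplicate.

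The counts were tested with edgeR 4.0.16 (R 4.3.3), using filterByExpr on group, TMM scaling (factors 0.802 to 1.28) and a robust glmQLFit with group and title set as terms, followed by a 2-sided glmQLFTest. The fit left 3 residual degrees of freedom, and its common coefficient of variation was 0.399. Genes with a Benjamini-Hochberg adjusted p under 0.05 were called. CPM are TMM-scaled. For a ratio within 1 title set, mean log2 CPM (prior count 2) were subtracted, with no test. Intervals are 95% intervals of the fit. On simulated counts for 10163 genes the same fit recovered 65.7% of genes changed by a log2 ratio of 2 and 92.9% of those changed by 4, with 7 false among 164 calls. Smaller changes, such as those of Ftl1, Tfrc, Blvrb and Fth1, were not simulated, and the noise was drawn from the fit's own estimates. Alternatives were group alone, DESeq2 1.42.0, no low-count filter, 4 other scalings, Y-linked transcripts as a term, and leaving out each library. Sequences came from GENCODE M21 and RefSeq (GRCm38); no coordinate was moved between builds.

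The 10 genes, the lists and the tests were chosen with earlier results of these data known. Of each further list the text names at most the 4 largest log2 ratios among called genes and the most abundant gene that was not called. Hmox2, Nfe2l2 and Bach1 are named outside that rule, chosen after their values were seen, and Nqo1 as the single antioxidant gene called with group alone; marker genes are named as members of printed lists or for their part in a sum.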

Additional observations from a re-analysis of the deposited data

How the results depend on the processing

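The count of the 10 genes called was 5 in the main fit, 1 with group alone (Hmox1), 2 with title set and Y-linked transcripts as terms, and 2 to 6 when each library was left out in turn, the fewest without null 1; the other settings gave 4 to 7. The corresponding counts of all tested genes were 1346, 121, 223 and 202 to 1603, and 2267 in DESeq2; of the other pathway genes they were 16, 1, 4 and 4 to 21. Hmox1 was called in every fit run (largest adjusted p 0.00145), with log2 ratios of 7.07 to 8.73 over all settings. Ftl1 lost its call only with group alone, Tfrc in 3 settings (the third being Y-linked transcripts as a term, adjusted p = 0.114), Blvrb in 7 and Fth1 in 8, among them leaving out the globin genes before scaling (adjusted p of 0.051 and 0.0566). The log2 ratio of Slc40a1 changed sign to 0.012 with library totals, 0.028 with upper-quartile scaling, 0.045 without control 1 and 0.16 without null 1 (and was -0.21 without control 3), and that of Ireb2 to 0.33 without null 1 (and was -0.59 without control 3); neither passed in any fit. The log2 difference of the Ftl1 to Fth1 ratio, 0.49, ranged from -0.27 (without null 1) through -0.036 (without control 3) to 0.92. The median of all genes was 0.20 without a filter and in DESeq2 and -0.0071 without globin genes. Without null 1 or control 3 a title set no longer compares the groups, and the fits without a library rest on fewer samples; other causes were not tested. Adding Ftl2 to Ftl1 was not run, since Ftl2 had no matched symbol. No paired analysis was possible because the labels carry no replicate numbers. In the shallowest library, control 1, 3 counts equal 0.445 CPM, beside 0.889 CPM for Hmox1 there.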
